A study of Mus musculus with 26 samples.

Results

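Chemokines are small secreted proteins that bind G-protein-coupled receptors and direct the movement of blood cells. Ligands are classed by the spacing of their first cysteines, and a receptor often binds several ligands of its class. Ccr2, for example, binds the products of Ccl2, Ccl7 and Ccl12. In blood-forming tissue Cxcr4 and its ligand Cxcl12 keep stem and progenitor cells in the marrow.

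The genes described here are those of the chemokine ligands and their receptors: every gene on the array whose symbol starts Ccl, Cxcl, Ccr, Cxcr, Cx3cl, Cx3cr, Xcl or Xcr followed by a digit. The rule gave 53 of the 18374 genes with a symbol, 34 ligands and 19 receptors. Each was read from 1 probe, the one with the highest mean signal of the 68 probes for these genes. The near-identical copies of Ccl21a and Ccl27a cannot be told apart from them with certainty, so the values of both are uncertain.

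RNA came from fractions of EML cells, a mouse haematopoietic line grown with horse serum and stem cell factor, and was measured on 26 arrays of 1 colour in 3 sets of slides. The first set held EryCP, CR Sca1lo and Sca1hi, fractions sorted on the surface proteins Sca1, CD34 and cKit, with 3 arrays each. CR Sca1lo and Sca1hi are named for Sca1. The second set held Ediff, cells without CD34 and cKit obtained after erythropoietin (Epo) drove EryCP cells to differentiate, and EryCP repeat, with 3 arrays each. The third set held CD34- CD103- Epo (3 arrays) and the fractions CD34- CD103- (4 arrays) and CD34+ CD103- (4 arrays). CD34- CD103- Epo is described as the CD34- CD103- fraction driven to erythroid differentiation by Epo. The labels give EML as the line of origin of all groups and name no engineered allele, but the array titles call it EML in the first and second sets and EMLe2 in the third, a difference that they do not explain. The sources used here give neither the dose nor the time of Epo. The labels do not say whether the arrays of a group came from separate cultures, so each p-value measures only the spread between these samples, which may be technical. Levels were compared only within a set, because set and group cannot be told apart between sets. A level here is the log2 signal of the probe minus the array's 75th percentile, so that 0 stands for the signal of that percentile. A probe was detected in a group when its signal was well above background on every array of the group. Arrays are numbered within their group.

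The share of spots well above background was 80.5% to 93.9% of the spots of an array in the first set, 76.2% to 82.6% in the second and 84.1% to 87.7% in the third. In the first set slide 2, which held 1 array of each group, had the highest shares (91.5% to 93.9%, against 81.3% to 87.1% on slide 3 and 80.5% to 83.1% on slide 1). The RNA of the sorting markers followed some labels and not others. Ly6a, which encodes Sca1, averaged -1.41 ± 0.08 in CR Sca1lo and 4.15 ± 0.04 in Sca1hi (SD, n = 3 each). Cd34 was not above background on any Ediff array and averaged 0.31 ± 0.26 in EryCP repeat. Kit, which encodes cKit, was above background on every Ediff array. It averaged 1.31 ± 0.18 in Ediff and 4.62 ± 0.06 in EryCP repeat (SD, n = 3 each). Cd34 RNA was abundant in the fraction labelled CD34- CD103- as well, at 5.05 ± 0.31 in CD34- CD103- and 6.83 ± 0.14 in CD34+ CD103- (SD, n = 4 each). Itgae, which encodes CD103, was detected in both of those fractions, at -0.19 ± 0.18 and -1.72 ± 0.24 in that order. In these RNA samples from whole fractions, fewer cells that express a gene and less RNA per cell cannot be told apart.

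Detection differed more between genes than between groups. Of the 34 ligands, 15 were detected in all 8 groups and 8 in none. Of the 19 receptors, 13 were detected in all 8 groups and 1 in none. The 9 genes detected in no group were the eosinophil attractant Ccl11, Ccl20, Ccl22, the neutrophil attractants Cxcl1, Cxcl3 and Cxcl5, the B cell attractant Cxcl13, Xcl1 and the receptor Cxcr1. Ccl11 and Ccl22 were above background on none of the 26 arrays.

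Ediff had the fewest detected members. It had 16 of 34 ligands (47.1%) and 13 of 19 receptors (68.4%), while EryCP repeat had 22 ligands (64.7%) and 16 receptors (84.2%). Over all 32485 genes measured the shares were 72.9% in Ediff and 73.4% in EryCP repeat. Here and below, all genes include probes without a symbol, each counted as a gene of its own. Ccl3, Ccl4, Ccl6, Cx3cl1, Cxcl2, Cxcl17, Ccr2 and Ccr7 were among those detected in EryCP repeat and not in Ediff. The ligand Cxcl10 was detected only in CD34+ CD103- and Sca1hi, and the receptor Ccr1 only in CD34- CD103-. CD34- CD103- Epo had 24 ligands and 17 receptors detected, CD34- CD103- 23 and 18, and CD34+ CD103- 25 and 17. EryCP had 24 ligands and 17 receptors, CR Sca1lo 23 and 17, and Sca1hi 24 and 16.

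**Figure D1:**
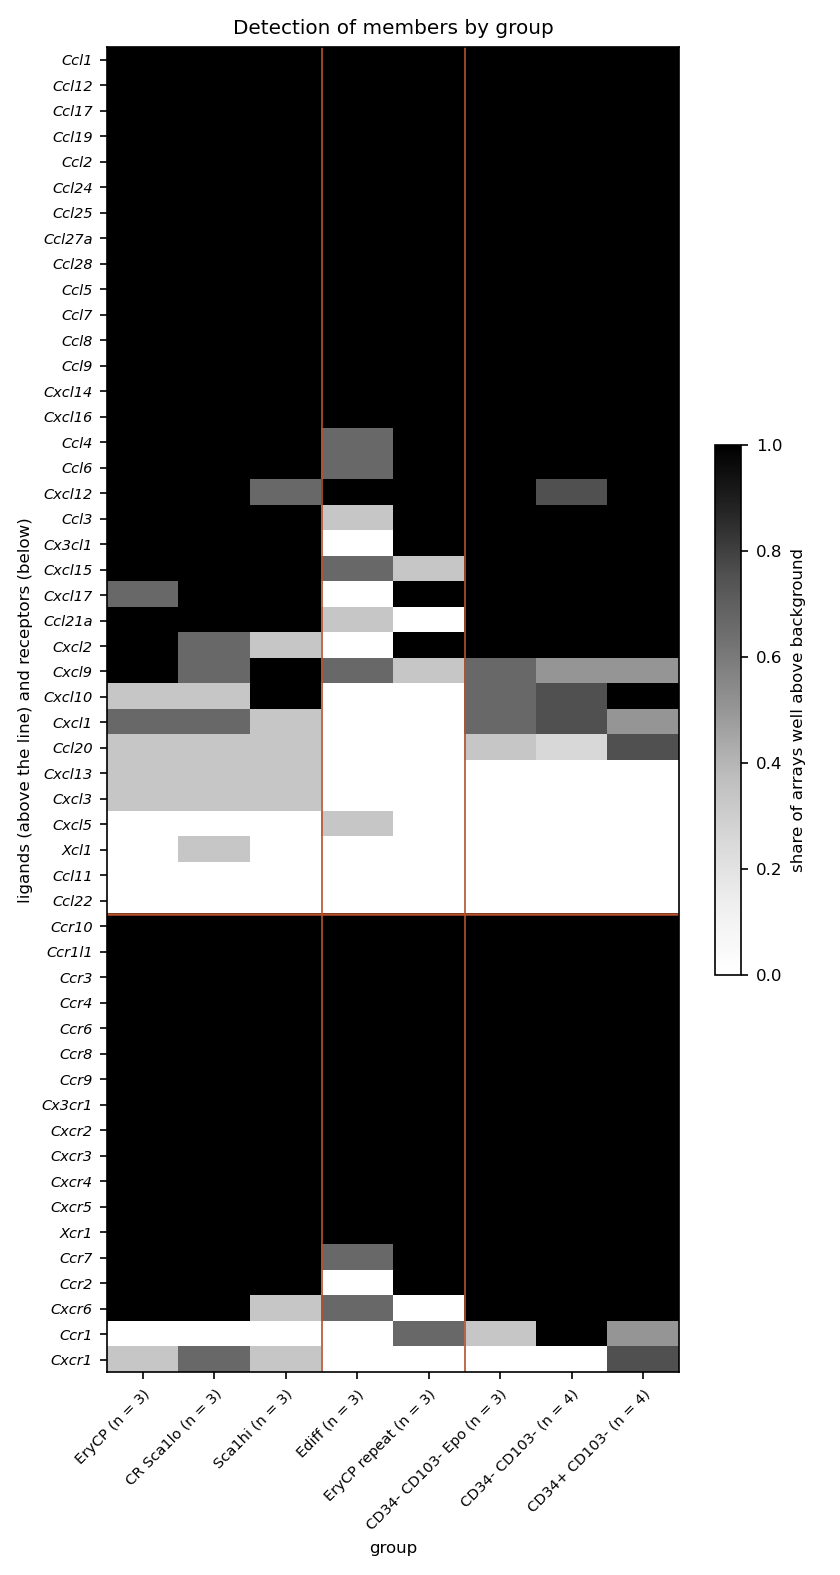
Share of the arrays of each group (columns) on which each of 52 members (rows) was well above background, from 0 (white) to 1 (black). The horizontal line parts the 34 ligands from 18 receptors, and vertical lines part the array sets. The Ediff column has the most pale cells.

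Differences were tested with limma within each set, and a gene was called at an adjusted p under 0.05. In the first set 43 members were tested. EryCP against CR Sca1lo had 9 called members, 6 higher and 3 lower (20.9% of those tested). Among all 26456 genes tested 5.01% were called, 2.74% higher and 2.26% lower. EryCP against Sca1hi had 11, 5 higher and 6 lower (25.6%), and among all genes 6.44% were called, 3.16% higher and 3.28% lower. CR Sca1lo against Sca1hi had 7, 2 higher and 5 lower (16.3%), where 3.63% of all genes were called, 1.23% higher and 2.4% lower. The arrays of the groups did not overlap for 12, 16 and 15 of the 43 tested members in those comparisons, in that order, against 18.1%, 19.0% and 18.7% of all genes. These comparisons share arrays, so their calls are not independent.

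Ediff against EryCP repeat had 24 called members of 38 tested (63.2%), 9 higher and 15 lower. That share is near the 56.6% of all genes called there, but the directions differed: 39.6% of all genes were called higher and 17.0% lower. The groups did not overlap for 24 of the 38 tested members (63.2%), near the 63.3% of all genes. The median difference over all genes was 0.45 on the log2 scale, against -0.51 when arrays were scaled on their spike-in RNA, so small differences in that comparison depend on the scaling. With the median of all genes at 0.45, the tested ligands had a median of -0.39 and the receptors 0.49.

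The third set had 43 members tested. CD34- CD103- against CD34+ CD103- had 12 called members, 8 higher and 4 lower (27.9%), where 12.4% of all 27356 genes were called, 5.65% higher and 6.76% lower. CD34- CD103- Epo against CD34- CD103- had 6, all lower (14.0%), where 2.54% of all genes were called, 0.654% higher and 1.89% lower. CD34- CD103- Epo against CD34+ CD103- had 6, 2 higher and 4 lower (14.0%), where 5.45% of all genes were called, 2.56% higher and 2.88% lower. The groups did not overlap for 13, 13 and 9 of the 43 tested members in those comparisons, in that order, against 17.0%, 19.1% and 18.6% of all genes. In this set spike-in scaling put the median of all genes at -0.25, -0.13 and -0.38, in place of -0.06, 0.08 and 0.02, and no member called there changed direction. With normexp background correction 20 of all 95 calls of members held, against 79 with normexp that left out spots of outlying local background, a setting chosen after seeing the data. Other settings are named below where they ended a call.

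**Figure D2:**
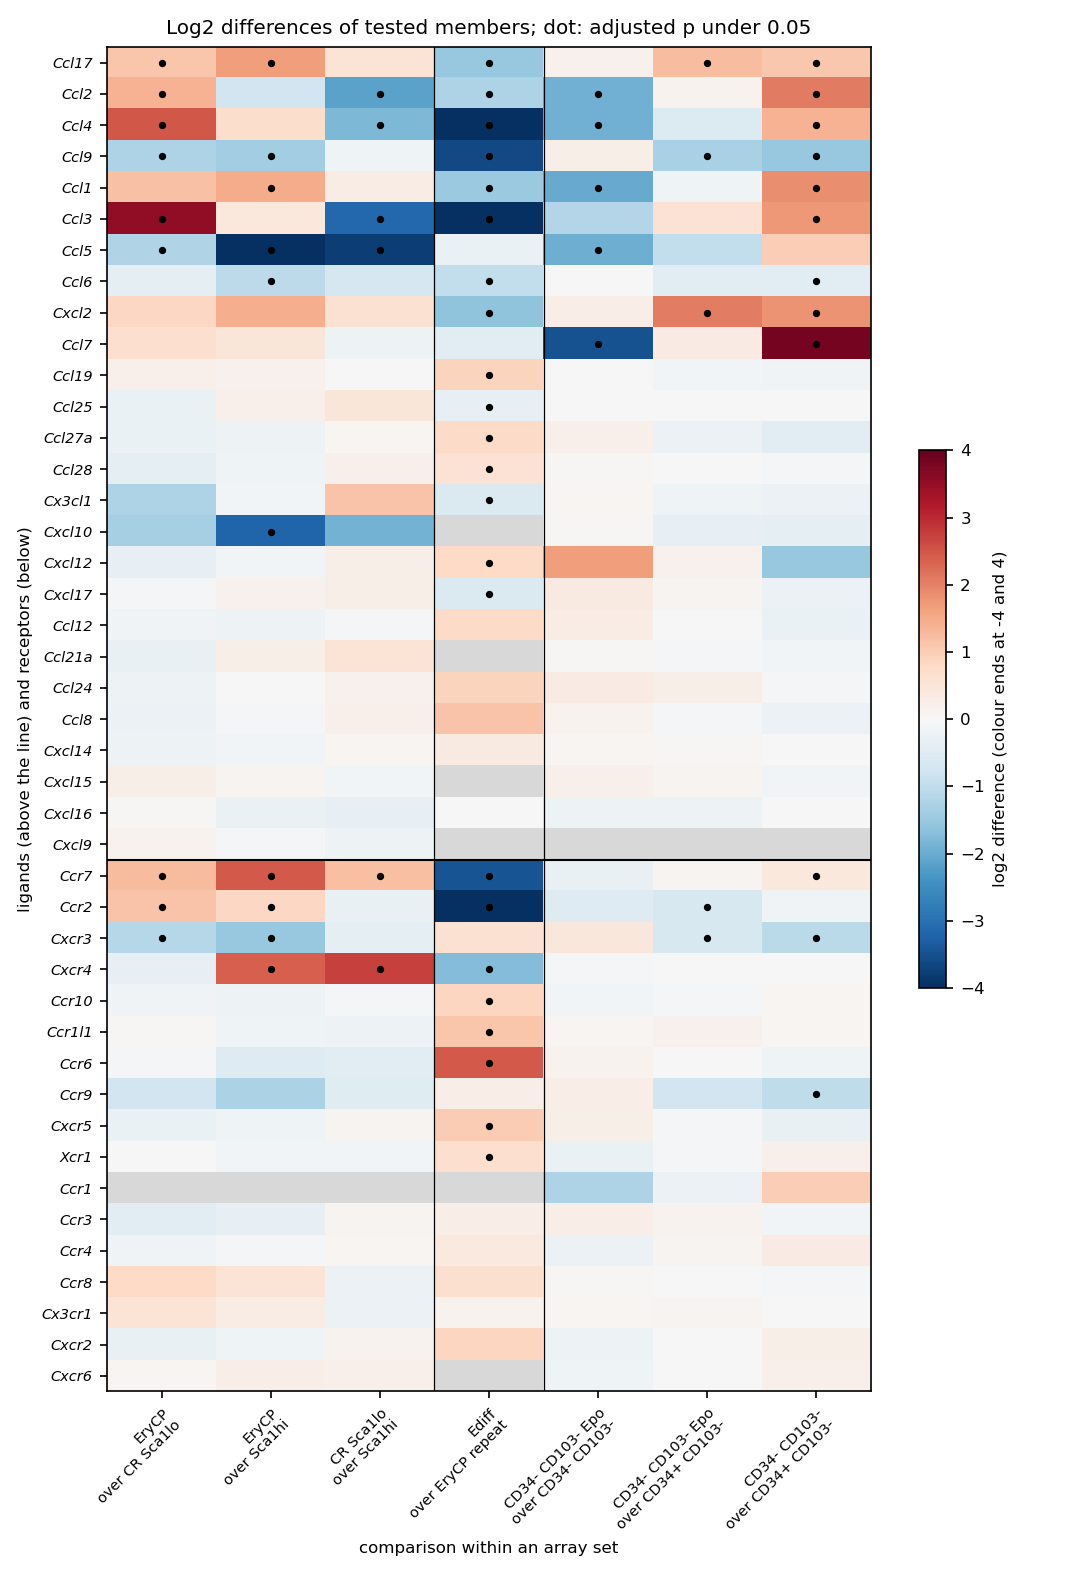
Log2 differences of members tested in at least 1 comparison (rows; ligands above the line, receptors below) in the 7 comparisons within array sets (columns). Red is higher and blue lower in the group named first, grey was not tested, and a dot marks an adjusted p under 0.05. In the Ediff column Ccr2, Cxcl2, Cx3cl1 and Cxcl17 are coloured at their bounds, and it has the most dots, 23.

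Some of the called ligands lie in 2 runs of neighbouring genes and others lie outside them. Ccl17, called in 5 comparisons, lies beside Ccl22 and Cx3cl1. In the RefSeq order of protein-coding genes (assembly GRCm38.p6) Ccl2, Ccl7, Ccl11, Ccl12, Ccl8 and Ccl1 follow one another, as do Ccl5, Ccl9, Ccl6, Ccl3 and Ccl4. Neighbours did not always move the same way. In CD34- CD103- against CD34+ CD103-, 3 of the 5 tested genes of the first run were called higher and none lower, while in the second run 2 of 5 were called higher and 2 lower. Of all genes 5.65% were called higher and 6.76% lower there.

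Promoters are shown for called ligands of both runs that moved in opposite directions, Ccl1 and Ccl3 against Ccl9, and for Cxcl2, Cxcl10, Ccr2 and Cxcr4, 2 ligands and 2 receptors with called differences. RefSeq's promoter table (build GRCm38.p6) held 40 of the 53 members. Each sequence is the 250 bases before the gene's annotated start, read 5′ to 3′ on the gene's own strand. Capitals mark matches to 5 motifs: the TATA box TATAAA (gene strand only), and, on both strands, GGG and TTTCC with any 2 bases between them for NF-kappaB, GAAA and GAAA with any 2 bases between them for interferon response factors, TGANTCA for AP-1 and GATAA for GATA factors.
Ccl1 (chr11:82179813-82180062, minus strand): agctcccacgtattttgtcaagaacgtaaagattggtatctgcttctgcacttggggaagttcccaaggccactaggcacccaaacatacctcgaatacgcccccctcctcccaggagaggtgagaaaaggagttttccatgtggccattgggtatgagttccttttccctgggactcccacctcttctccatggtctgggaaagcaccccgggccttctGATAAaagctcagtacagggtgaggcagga
Ccl3 (chr11:83649379-83649628, minus strand): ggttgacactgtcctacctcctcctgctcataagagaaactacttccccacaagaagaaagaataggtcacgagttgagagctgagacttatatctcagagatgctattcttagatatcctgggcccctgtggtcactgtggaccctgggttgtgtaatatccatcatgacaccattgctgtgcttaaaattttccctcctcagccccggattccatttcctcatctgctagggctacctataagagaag
Ccl9 (chr11:83578637-83578886, minus strand): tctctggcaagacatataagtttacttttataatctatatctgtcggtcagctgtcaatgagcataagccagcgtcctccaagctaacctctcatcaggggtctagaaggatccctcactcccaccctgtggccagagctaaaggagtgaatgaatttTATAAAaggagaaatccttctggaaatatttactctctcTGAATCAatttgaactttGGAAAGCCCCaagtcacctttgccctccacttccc
Cxcl2 (chr5:90903649-90903898, plus strand): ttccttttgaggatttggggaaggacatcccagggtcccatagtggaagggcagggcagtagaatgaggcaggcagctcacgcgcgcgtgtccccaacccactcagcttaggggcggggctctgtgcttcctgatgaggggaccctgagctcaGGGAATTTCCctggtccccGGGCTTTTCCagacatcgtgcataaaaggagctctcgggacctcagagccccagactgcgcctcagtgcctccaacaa
Cxcl10 (chr5:92348890-92349139, minus strand): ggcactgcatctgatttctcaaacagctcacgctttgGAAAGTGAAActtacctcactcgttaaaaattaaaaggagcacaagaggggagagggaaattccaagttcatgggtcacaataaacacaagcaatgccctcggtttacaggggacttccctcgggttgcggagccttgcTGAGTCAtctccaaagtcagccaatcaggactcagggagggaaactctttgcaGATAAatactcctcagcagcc
Ccr2 (chr9:124101933-124102182, plus strand): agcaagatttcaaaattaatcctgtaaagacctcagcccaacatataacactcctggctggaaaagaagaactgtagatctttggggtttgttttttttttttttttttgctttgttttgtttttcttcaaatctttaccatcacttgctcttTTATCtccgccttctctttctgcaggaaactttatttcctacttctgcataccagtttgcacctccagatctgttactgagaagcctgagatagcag
Cxcr4 (chr1:128592300-128592549, minus strand): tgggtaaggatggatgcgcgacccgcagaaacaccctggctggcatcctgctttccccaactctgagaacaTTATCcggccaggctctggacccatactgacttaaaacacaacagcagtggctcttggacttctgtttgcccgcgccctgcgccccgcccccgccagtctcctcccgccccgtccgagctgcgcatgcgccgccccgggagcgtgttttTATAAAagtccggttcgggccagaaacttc

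Cxcl2 held 2 NF-kappaB matches, which begin 97 and 78 bases before the start, and Ccl9 held 1 on the opposite strand, 35 bases before it. Of all 32851 promoters, 1.41% held this motif in the same window. Cxcl10 held the interferon motif, which 2.98% of promoters held, and an AP-1 match, as did Ccl9 (6.75% of promoters). Ccl9 and Cxcr4 held a TATA box (7.59%), and Ccl1, Cxcl10, Ccr2 and Cxcr4 held GATAA on one strand or the other (22.6%). Ccl3 held none of these letters in its window. No match overlapped another, and a match is a description of the letters and not of binding.

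Ccl2 encodes the monocyte attractant MCP-1. It was at -1.51, -1.18 and -1.52 in EryCP, -2.63, -3.54 and -2.21 in CR Sca1lo and -0.65, -0.70 and -0.60 in Sca1hi. The CR Sca1lo arrays were below those of both other groups, with no overlap. The log2 difference was -2.15 ± 0.31 (adjusted p = 0.00781) for CR Sca1lo against Sca1hi and 1.39 ± 0.31 (adjusted p = 0.0413) for EryCP against CR Sca1lo, where ± is the standard error here and below. EryCP did not differ from Sca1hi past the threshold (-0.76 ± 0.31, adjusted p = 0.29). The difference of EryCP from CR Sca1lo was not past the threshold without 8 of the 9 arrays in turn (all but CR Sca1lo 3, log2 difference 1.02 to 1.47, adjusted p = 0.0542 to 0.128), nor with spike-in scaling, without the filter on dim probes or without slide 2 (1.39 to 1.57, adjusted p = 0.0674 to 0.117), and the difference of CR Sca1lo from Sca1hi not past it without slide 2, at -2.41 (adjusted p = 0.05). In the third set Ccl2 was at -2.41, -2.43 and -2.57 in CD34- CD103- Epo, -0.78, -0.51, -0.47 and -0.44 in CD34- CD103- and -2.82, -2.33, -2.72 and -2.64 in CD34+ CD103-. CD34- CD103- stood above both other groups on all 4 arrays. It was 4.22-fold higher in CD34- CD103- than in CD34+ CD103- (2.08 ± 0.12, adjusted p = 1.12e-06) and 3.79-fold lower in CD34- CD103- Epo than in CD34- CD103- (-1.92 ± 0.13, adjusted p = 1.2e-05). In the second set it was at -3.23, -3.70 and -3.29 in Ediff and -1.57, -1.88 and -3.10 in EryCP repeat, and was lower in Ediff (-1.22 ± 0.41, adjusted p = 0.0438), a call that was lost without 5 of the 6 arrays in turn (all but EryCP repeat 3, log2 difference -1.31 to -0.92, adjusted p = 0.0866 to 0.123) and with normexp that left out spots of outlying background or without the filter on dim probes (-1.22 to -0.54, adjusted p = 0.0584 to 0.0629).

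Ccl7 (MCP-3), another Ccr2 ligand, had the largest difference of all members between CD34- CD103- and CD34+ CD103-. Its levels were -3.44, -4.31 and -4.31 in CD34- CD103- Epo, -0.77, -0.59, -0.43 and -0.28 in CD34- CD103- and -4.44, -4.08, -4.55 and -4.31 in CD34+ CD103-. The 4 CD34- CD103- arrays lay more than 2 log2 units above every other array of the set. The gene was 14.2-fold higher in CD34- CD103- than in CD34+ CD103- (3.83 ± 0.20, adjusted p = 6.67e-07) and 11.3-fold lower in CD34- CD103- Epo than in CD34- CD103- (-3.50 ± 0.22, adjusted p = 7.57e-06). Both comparisons use the same CD34- CD103- arrays, and CD34- CD103- Epo against CD34+ CD103- gave 0.33 ± 0.22 (adjusted p = 0.536). In the first set it was at -2.84, -2.72 and -3.08 in EryCP, -2.73, -4.53 and -3.39 in CR Sca1lo and -3.61, -3.29 and -3.18 in Sca1hi, where CR Sca1lo overlapped both other groups and no difference passed the threshold. Its levels in the second set were -4.10, -4.47 and -4.47 in Ediff and -3.53, -3.72 and -4.41 in EryCP repeat, with a difference of -0.46 ± 0.25 (adjusted p = 0.158). Its other probe fell by 2.57 there and was called, so the probes differ on Ediff, while both were called in the same direction in the third set.

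Ccl1, a ligand of Ccr8, was likewise highest in CD34- CD103-. It was at -4.99, -5.47 and -4.96 in CD34- CD103- Epo, -3.33, -2.89, -3.13 and -3.10 in CD34- CD103- and -5.33, -4.42, -4.99 and -5.13 in CD34+ CD103-. CD34- CD103- was above both other groups, which overlapped each other. The differences were 1.86 ± 0.19 (adjusted p = 0.000106) for CD34- CD103- against CD34+ CD103- and -2.03 ± 0.21 (adjusted p = 0.000358) for CD34- CD103- Epo against CD34- CD103-. Its levels in the first set were -3.11, -3.03 and -3.20 in EryCP, -3.67, -5.08 and -4.12 in CR Sca1lo and -4.87, -4.72 and -4.19 in Sca1hi. The EryCP arrays were the highest 3, and the difference from Sca1hi was 1.48 ± 0.35 (adjusted p = 0.0433), which was lost without 7 of the 9 arrays in turn (all but CR Sca1lo 1 and CR Sca1lo 2, log2 difference 1.34 to 1.68, adjusted p = 0.0547 to 0.173) and with normexp that left out spots of outlying background, with spike-in scaling, without the filter on dim probes, with eBayes trend and robust or without slide 2 (0.56 to 1.64, adjusted p = 0.0591 to 0.183). The second set gave levels of -5.16, -5.25 and -5.26 in Ediff and -3.40, -3.72 and -4.06 in EryCP repeat. The Ediff arrays were the lowest 3, with a difference of -1.50 ± 0.18 (adjusted p = 0.000929). This call was lost with normexp that left out spots of outlying background (-0.14, adjusted p = 0.183). The neighbours Ccl12, a Ccr2 ligand of the mouse, and Ccl8 were detected in every group and called in no comparison, with levels of -5.34 to -2.41 and -5.64 to -2.39.

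Ccl3 and Ccl4 (MIP-1 alpha and MIP-1 beta), neighbouring genes of inflammatory ligands, were both lowest in CR Sca1lo in the first set. Ccl3 was at 0.61, 0.21 and 0.55 in EryCP, -3.04, -3.13 and -3.12 in CR Sca1lo and 0.36, -0.16 and -0.06 in Sca1hi. Ccl4 was at -0.26, -0.89 and -0.75 in EryCP, -3.13, -3.02 and -3.19 in CR Sca1lo and -1.08, -1.34 and -1.55 in Sca1hi. In both genes the CR Sca1lo arrays were the lowest 3, with no overlap with either other group. Ccl3 was 11.7-fold higher in EryCP than in CR Sca1lo (3.55 ± 0.19, adjusted p = 4.01e-05) and 8.83-fold lower in CR Sca1lo than in Sca1hi (-3.14 ± 0.19, adjusted p = 0.00016). For Ccl4 these differences were 2.48 ± 0.21 (adjusted p = 0.000289) and -1.79 ± 0.21 (adjusted p = 0.00266). Neither gene differed past the threshold between EryCP and Sca1hi, where Ccl3 gave 0.41 ± 0.19 (adjusted p = 0.366) and Ccl4 0.69 ± 0.21 (adjusted p = 0.112).

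In the second set Ccl3 was at -7.70, -4.73 and -7.85 in Ediff and 0.52, 0.39 and -0.61 in EryCP repeat, and its signal exceeded background on 1 Ediff array of 3. Ccl4 was at -3.94, -5.78 and -4.70 in Ediff and 0.45, 0.21 and -0.72 in EryCP repeat, and its signal exceeded background on 2 Ediff arrays of 3. All Ediff arrays were far below all EryCP repeat arrays in both genes. The differences were -6.86 ± 0.88 (adjusted p = 0.00131) for Ccl3 and -4.79 ± 0.53 (adjusted p = 0.000723) for Ccl4. The size for Ccl3 rests on signals at background: with each Ediff array that was not above background set at its lowest signal well above background, the difference was -5.57 for Ccl3 and -4.79 for Ccl4. In the third set Ccl3 was at -0.96, -1.11 and -1.51 in CD34- CD103- Epo, -0.52, 0.34, -0.33 and 0.36 in CD34- CD103- and -2.29, -1.42, -1.46 and -1.88 in CD34+ CD103-. Ccl4 was at -3.47, -4.07 and -2.85 in CD34- CD103- Epo, -1.52, -1.57, -1.86 and -1.20 in CD34- CD103- and -2.87, -2.87, -2.83 and -3.09 in CD34+ CD103-. CD34- CD103- had the highest levels of both genes, with 1.73 ± 0.25 (adjusted p = 0.00118) for Ccl3 and 1.38 ± 0.23 (adjusted p = 0.00238) for Ccl4 against CD34+ CD103-. Against CD34- CD103-, CD34- CD103- Epo was lower in Ccl4 (-1.93 ± 0.24, adjusted p = 0.0017), while Ccl3 gave -1.16 ± 0.27 (adjusted p = 0.0581) and did not pass the threshold.

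Ccl5 (RANTES), an attractant of T cells, had the largest fall of any member in EryCP against Sca1hi. It was at -1.11, -0.98 and -1.62 in EryCP, -0.19, 0.03 and 0.02 in CR Sca1lo and 3.70, 3.94 and 3.53 in Sca1hi. The 3 groups did not overlap, and Sca1hi was the highest. CR Sca1lo was 13.7-fold lower than Sca1hi (-3.77 ± 0.20, adjusted p = 0.000128) and EryCP lower than CR Sca1lo (-1.19 ± 0.20, adjusted p = 0.0126), the second call being lost without CR Sca1lo 2 or CR Sca1lo 3 (log2 difference -1.16 to -1.15, adjusted p = 0.0509 to 0.069) and with spike-in scaling or without slide 2 (-1.29 to -1.15, adjusted p = 0.0625 to 0.0698). Levels in the second set were -2.68, -3.02 and -2.34 in Ediff and -2.46, -2.49 and -2.28 in EryCP repeat, where the chosen probe gave -0.27 ± 0.19 (adjusted p = 0.244) and its other probe fell by 0.85 and was called. In the third set it was at -1.12, -2.24 and -0.29 in CD34- CD103- Epo, 0.47, 0.68, 1.09 and 0.67 in CD34- CD103- and -0.32, 0.24, -0.56 and -0.32 in CD34+ CD103-. CD34- CD103- Epo 2 was the lowest array of the set and CD34- CD103- Epo spread over almost 2 log2 units. The difference of CD34- CD103- Epo from CD34- CD103- was -1.94 ± 0.38 (adjusted p = 0.0237), and was lost without CD34- CD103- 2, CD34- CD103- 3, CD34- CD103- 4 or CD34- CD103- Epo 1 (log2 difference -1.99 to -1.82, adjusted p = 0.0613 to 0.0809).

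Ccl9 (MIP-1 gamma), a mouse ligand of Ccr1, was detected in every group and differed in 5 comparisons. It was at 1.16, 0.95 and 1.07 in EryCP, 2.37, 2.42 and 2.05 in CR Sca1lo and 2.51, 2.42 and 2.45 in Sca1hi. EryCP was below CR Sca1lo (-1.22 ± 0.15, adjusted p = 0.00229) and Sca1hi (-1.40 ± 0.15, adjusted p = 0.000914), which overlapped each other. Within the second set its levels were -2.38, -2.94 and -2.42 in Ediff and 1.11, 1.0 and 1.02 in EryCP repeat. Ediff was 12.3-fold lower (-3.62 ± 0.17, adjusted p = 2.1e-05). Its levels in the third set were 1.31, 1.58 and 1.56 in CD34- CD103- Epo, 1.21, 1.26, 1.26 and 1.30 in CD34- CD103- and 2.71, 2.92, 2.55 and 2.94 in CD34+ CD103-. CD34- CD103- (-1.53 ± 0.10, adjusted p = 4.02e-06) and CD34- CD103- Epo (-1.30 ± 0.11, adjusted p = 0.000105) were both below CD34+ CD103-, and all arrays of both were below all of its arrays.

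Ccl6, the neighbour of Ccl9 and likewise a mouse ligand of Ccr1, fell in 3 of the comparisons in which Ccl9 fell. The first set gave levels of -3.24, -2.78 and -3.43 in EryCP, -2.84, -3.04 and -2.43 in CR Sca1lo and -2.30, -2.12 and -1.84 in Sca1hi. It was at -4.79, -5.80 and -4.76 in Ediff and -4.22, -3.81 and -4.33 in EryCP repeat in the second set. It was at -3.52, -3.05 and -3.34 in CD34- CD103- Epo, -3.34, -3.35, -3.28 and -3.29 in CD34- CD103- and -2.85, -2.65, -2.92 and -2.98 in CD34+ CD103- in the third set. All Ediff arrays were below all EryCP repeat arrays (-1.0 ± 0.32, adjusted p = 0.0381; its signal exceeded background on 2 Ediff arrays of 3), a call lost without 4 of the 6 arrays in turn (all but Ediff 2 and Ediff 3, log2 difference -1.16 to -0.84, adjusted p = 0.0519 to 0.0899) and without the filter on dim probes (-1.0, adjusted p = 0.0518). CD34- CD103- was below CD34+ CD103- (-0.46 ± 0.11, adjusted p = 0.0175), a call lost without CD34- CD103- 2 (log2 difference -0.45, adjusted p = 0.0508) and with normexp that left out spots of outlying background (-0.27, adjusted p = 0.0833). EryCP was below Sca1hi (-1.06 ± 0.24, adjusted p = 0.0359), a call lost without 7 of the 9 arrays in turn (all but CR Sca1lo 3 and EryCP 2, log2 difference -1.17 to -0.92, adjusted p = 0.0543 to 0.14) and with spike-in scaling, without the filter on dim probes or with eBayes trend and robust (-1.07 to -1.06, adjusted p = 0.057 to 0.138).

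Ccl17 (TARC), a ligand of Ccr4, differed in 5 comparisons. It was at -1.63, -1.71 and -1.87 in EryCP, -2.69, -3.12 and -2.73 in CR Sca1lo and -3.40, -3.32 and -3.49 in Sca1hi. The 3 groups did not overlap and stood in that order from high to low. EryCP was above Sca1hi (1.67 ± 0.16, adjusted p = 0.000546) and CR Sca1lo (1.11 ± 0.16, adjusted p = 0.00575), the second call being lost without slide 2, at 1.16 (adjusted p = 0.0649). In the second set it was at -2.18, -2.80 and -2.32 in Ediff and -0.88, -1.02 and -0.83 in EryCP repeat. All Ediff arrays were below all EryCP repeat arrays (-1.53 ± 0.18, adjusted p = 0.00088). The third set gave levels of -2.22, -2.37 and -2.14 in CD34- CD103- Epo, -2.06, -2.81, -2.23 and -2.55 in CD34- CD103- and -3.35, -3.34, -3.73 and -3.50 in CD34+ CD103-. Both CD34- CD103- Epo (1.23 ± 0.17, adjusted p = 0.00216) and CD34- CD103- (1.07 ± 0.16, adjusted p = 0.0013) were above CD34+ CD103-, and they overlapped each other.

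Cxcl2 (MIP-2), a neutrophil attractant and ligand of Cxcr2, was at -2.46, -2.51 and -3.0 in CD34- CD103- Epo, -3.39, -2.52, -3.17 and -2.56 in CD34- CD103- and -5.23, -4.0, -4.75 and -4.90 in CD34+ CD103- in the third set. CD34- CD103- Epo and CD34- CD103- overlapped (0.25 ± 0.30, adjusted p = 0.695) and both were above CD34+ CD103-, by 2.06 ± 0.30 (adjusted p = 0.00284) and 1.81 ± 0.28 (adjusted p = 0.00161). Its levels in the second set were -7.92, -6.48 and -7.12 in Ediff and -4.46, -3.88 and -4.46 in EryCP repeat. It was not above background on any Ediff array and at least 3.08-fold lower there (adjusted p = 0.00144). The call was lost with normexp that left out spots of outlying background (-0.15, adjusted p = 0.129). Such a bound, used below as well, sets the brighter group's mean against the lowest signal well above background on each dim array. The adjusted p printed beside a bound is limma's for the measured signals, those at background included, and does not test the bound. Levels in the first set were -4.45, -4.30 and -4.76 in EryCP, -4.65, -6.45 and -4.89 in CR Sca1lo and -5.93, -6.41 and -5.47 in Sca1hi, above background on every EryCP array, on 2 of 3 CR Sca1lo arrays and on 1 of 3 Sca1hi arrays, and no difference passed the threshold. Its neighbours Cxcl1 and Cxcl3 were detected in no group.

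Cxcl10 (IP-10), an interferon-induced ligand of Cxcr3, was at -7.48, -5.48 and -8.17 in EryCP, -6.34, -5.80 and -5.03 in CR Sca1lo and -3.32, -4.04 and -4.15 in Sca1hi. It was above background on all Sca1hi arrays and on 1 array each of EryCP and CR Sca1lo. EryCP was below Sca1hi (-3.21 ± 0.66, adjusted p = 0.0257; -1.86 with the dim EryCP arrays at their lowest signal well above background), and the call was lost without 6 of the 9 arrays in turn (all but CR Sca1lo 1, CR Sca1lo 3 and EryCP 2, log2 difference -3.37 to -2.64, adjusted p = 0.0519 to 0.115). Levels in the third set were -1.98, -4.65 and -8.38 in CD34- CD103- Epo, -5.09, -8.47, -3.55 and -3.14 in CD34- CD103- and -4.12, -4.77, -4.93 and -4.86 in CD34+ CD103-, where arrays within CD34- CD103- Epo and within CD34- CD103- lay more than 5 log2 units apart. Of the 11 interferon response genes tested beside it, 9 were called lower and none higher in EryCP against Sca1hi, with a median of -1.48 (all genes -0.03), and in CR Sca1lo against Sca1hi 4 were called lower and none higher. In CD34- CD103- Epo 8 of the 11 were called lower against CD34+ CD103- and 3 against CD34- CD103-. In CD34- CD103- against CD34+ CD103- 2 were called lower. None was called higher in the third set, where Cxcl10 was not called. The part of this list in the level of Cxcl10 was not tested.

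**Figure D3:**
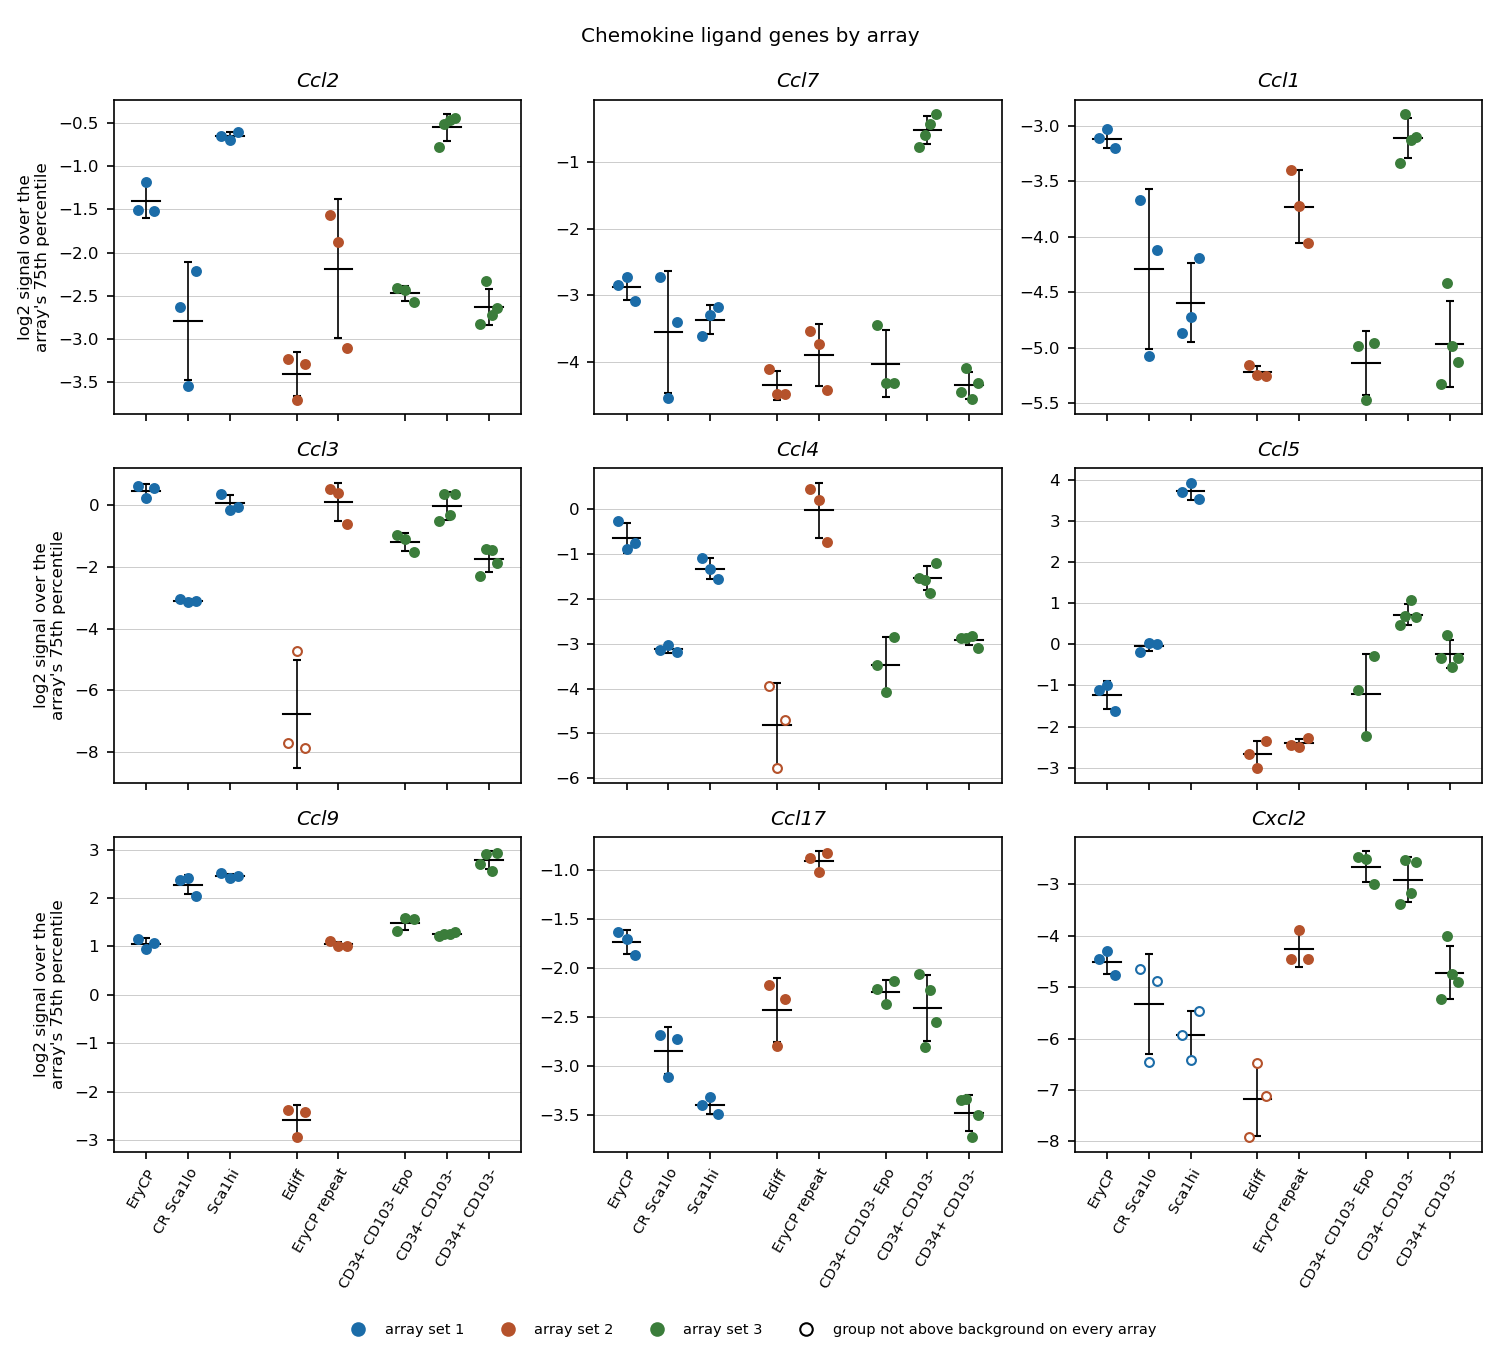
Levels of 9 ligand genes on each array (dots; log2 signal over the array's 75th percentile) in the 8 groups, with the mean and SD of each group; colours mark the array sets, and open dots a group that was not above background on every array. The 4 CD34- CD103- arrays stand highest of their set in Ccl2, Ccl7 and Ccl1, and the Ediff arrays lie lowest of their set in Ccl3, Ccl4, Ccl9 and Cxcl2.

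Of the receptors, Ccr2, which binds Ccl2 and Ccl7, had the largest fall of all members in Ediff. It was at -7.76, -7.77 and -8.00 in Ediff and 1.63, 1.66 and 1.76 in EryCP repeat. It was not above background on any Ediff array and at least 190-fold lower there (adjusted p = 1.37e-06). Both of its probes were called lower, but the other probe gave -5.23 on the log2 scale. The bound therefore holds for the chosen probe only. Within the first set its levels were 1.41, 1.16 and 1.53 in EryCP, 0.19, 0.27 and 0.22 in CR Sca1lo and 0.73, 0.44 and 0.40 in Sca1hi. EryCP was above CR Sca1lo (1.14 ± 0.16, adjusted p = 0.00451), a call lost with spike-in scaling (1.18, adjusted p = 0.054). It was also above Sca1hi (0.84 ± 0.16, adjusted p = 0.0168), which was called on 1 of the 2 probes and lost without Sca1hi 2, Sca1hi 3, EryCP 1 or EryCP 3 (log2 difference 0.76 to 0.82, adjusted p = 0.0633 to 0.0961) and with spike-in scaling or without slide 2 (0.83 to 0.88, adjusted p = 0.0601 to 0.197). Within the third set its levels were 0.99, 1.27 and 0.88 in CD34- CD103- Epo, 1.23, 1.77, 1.42 and 1.79 in CD34- CD103- and 1.58, 1.61, 1.88 and 1.69 in CD34+ CD103-. CD34- CD103- Epo was below CD34+ CD103- (-0.65 ± 0.16, adjusted p = 0.039), which was called on 1 of 2 probes and was lost without 7 of the 11 arrays in turn (all but CD34- CD103- 1, CD34- CD103- 2, CD34- CD103- 4 and CD34- CD103- Epo 2, log2 difference -0.68 to -0.56, adjusted p = 0.0532 to 0.164) and without the filter on dim probes or with the median of the gene's probes (-0.72 to -0.65, adjusted p = 0.056 to 0.0929).

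Ccr7, which binds Ccl19 and Ccl21 and guides cells to lymphoid tissue, was at -0.74, -1.21 and -1.03 in EryCP, -2.0, -2.34 and -2.39 in CR Sca1lo and -3.59, -3.40 and -3.38 in Sca1hi. The groups did not overlap and stood in that order from high to low. EryCP was 5.51-fold above Sca1hi (2.46 ± 0.18, adjusted p = 0.000118) and above CR Sca1lo (1.25 ± 0.18, adjusted p = 0.00539), and CR Sca1lo was above Sca1hi (1.21 ± 0.18, adjusted p = 0.00907), the last call being lost without Sca1hi 2 (log2 difference 1.24, adjusted p = 0.0521) and without slide 2 at 1.32 (adjusted p = 0.0609). Levels in the second set were -5.05, -6.28 and -5.54 in Ediff and -2.25, -2.01 and -2.29 in EryCP repeat. Ediff was 10.8-fold lower (-3.44 ± 0.31, adjusted p = 0.000305) and above background on 2 of 3 arrays. Its levels in the third set were -3.36, -3.18 and -3.37 in CD34- CD103- Epo, -2.76, -3.18, -2.90 and -3.14 in CD34- CD103- and -3.38, -3.28, -3.57 and -3.41 in CD34+ CD103-. CD34- CD103- was above CD34+ CD103- (0.42 ± 0.11, adjusted p = 0.0333), which was lost without 7 of the 11 arrays in turn (all but CD34- CD103- 2, CD34- CD103- 4, CD34+ CD103- 2 and CD34- CD103- Epo 2, log2 difference 0.34 to 0.42, adjusted p = 0.0511 to 0.0889) and with normexp that left out spots of outlying background or with spike-in scaling (0.22 to 0.30, adjusted p = 0.0976 to 0.231).

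Cxcr4, the receptor of Cxcl12, was at -1.22, -1.40 and -1.12 in EryCP, -0.87, -0.80 and -1.04 in CR Sca1lo and -3.26, -3.62 and -4.0 in Sca1hi. Sca1hi was the lowest group, without overlap. EryCP was 5.21-fold above Sca1hi (2.38 ± 0.21, adjusted p = 0.000284), CR Sca1lo was 6.6-fold above it (2.72 ± 0.21, adjusted p = 0.000395), and EryCP and CR Sca1lo did not differ past the threshold (-0.34 ± 0.21, adjusted p = 0.64). Within the second set its levels were -2.36, -2.17 and -2.31 in Ediff and -0.54, -0.72 and -0.37 in EryCP repeat, lower in Ediff (-1.74 ± 0.12, adjusted p = 0.00011). Its other probe was not called in these comparisons and gave 0.38, 0.65 and -0.59, in that order, so the probes differ in size. The third set gave levels of -1.47, -1.68 and -1.72 in CD34- CD103- Epo, -1.45, -1.68, -1.59 and -1.64 in CD34- CD103- and -1.59, -1.74, -1.49 and -1.64 in CD34+ CD103-, and the 3 groups overlapped.

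Cxcr3, the receptor of Cxcl9 and Cxcl10, was at -1.75, -1.41 and -2.04 in EryCP, -0.55, -0.74 and -0.50 in CR Sca1lo and -0.32, -0.13 and -0.21 in Sca1hi. EryCP was below both CR Sca1lo (-1.14 ± 0.19, adjusted p = 0.00983) and Sca1hi (-1.52 ± 0.19, adjusted p = 0.00186), the first call being lost without CR Sca1lo 1 or EryCP 1 (log2 difference -1.13 to -1.11, adjusted p = 0.0512 to 0.055) and with spike-in scaling (-1.09, adjusted p = 0.0725). Levels in the third set were -1.60, -1.37 and -1.41 in CD34- CD103- Epo, -1.74, -1.97, -2.07 and -1.83 in CD34- CD103- and -0.73, -0.79, -0.97 and -0.76 in CD34+ CD103-. CD34- CD103- Epo (-0.65 ± 0.11, adjusted p = 0.00513) and CD34- CD103- (-1.09 ± 0.10, adjusted p = 3.36e-05) were both below CD34+ CD103-, without overlap. In the second set it was at -2.28, -3.04 and -2.45 in Ediff and -3.31, -2.56 and -3.71 in EryCP repeat, and the difference did not pass the threshold (0.60 ± 0.34, adjusted p = 0.169). T cells and NK cells are known for Cxcr3. The mean level of 10 markers of those cells was -2.76 to -2.30 in CD34- CD103- and -2.72 to -2.35 in CD34+ CD103-, and 9 were detected in each. Of 9 tested, 2 were called lower in CD34- CD103- against CD34+ CD103-, Lck (-0.86 ± 0.08) and Nkg7 (-0.63 ± 0.11). Cd3g was called higher (0.76 ± 0.11). The part of these markers in the level of Cxcr3 was not tested.

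Ccr9, the receptor of Ccl25, was at -1.97, -1.64 and -1.61 in CD34- CD103- Epo, -1.56, -2.31, -1.95 and -2.13 in CD34- CD103- and -0.89, -0.71, -1.36 and -0.94 in CD34+ CD103-. CD34- CD103- was below CD34+ CD103- (-1.01 ± 0.18, adjusted p = 0.00414), without overlap. In the first set it ranged over -1.77 to -0.49 in EryCP, -0.63 to -0.09 in CR Sca1lo and 0.10 to 0.23 in Sca1hi, where EryCP against Sca1hi gave -1.26 ± 0.31 (adjusted p = 0.0509). Ccl25 itself was detected in every group and lay at -0.51, -0.45 and -0.49 in Ediff and -0.14, -0.24 and -0.11 in EryCP repeat, with a difference of -0.32 ± 0.09 (adjusted p = 0.0222) that was lost without 4 of the 6 arrays in turn (all but Ediff 2 and EryCP repeat 2, log2 difference -0.32 to -0.30, adjusted p = 0.069 to 0.0896). Ccr1, the receptor of Ccl6 and Ccl9, was tested in the third set alone, where it lay at -6.22 to -5.66 in CD34- CD103- Epo, -5.35 to -4.19 in CD34- CD103- and -6.42 to -4.50 in CD34+ CD103- and was not called.

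Ccr6, the receptor of Ccl20, was the member with the largest rise in Ediff. It was at 0.22, -0.76 and 0.38 in Ediff and -2.59, -2.36 and -2.52 in EryCP repeat. All Ediff arrays were above all EryCP repeat arrays, with a difference of 2.44 ± 0.31 (adjusted p = 0.00119), and the call held when any of the 6 arrays was left out. It ranged over -2.67 to -0.53 in the first set and -2.50 to -1.96 in the third and was not called there. Its ligand Ccl20 was detected in no group.

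Beside the 9 genes detected in no group, 14 members were detected in at least 1 group and called in no comparison. Ccl8, Ccl12, Ccl24, Cxcl14 and Cxcl16 and the receptors Ccr3, Ccr4, Ccr8, Cx3cr1 and Cxcr2 were detected in all 8 groups. Cxcl16, the ligand of Cxcr6, lay at -1.71 to -0.91 in the first set, -2.50 to -1.95 in the second and -1.69 to -1.24 in the third. Cxcr2, the receptor of Cxcl2, lay at -4.11 to -2.30, -5.70 to -3.08 and -4.87 to -3.85 in those sets. Cx3cr1, the receptor of Cx3cl1, lay at -4.14 to -0.99, -3.25 to -2.47 and -4.23 to -3.27. The other 4 were detected in some groups, Ccl21a and Cxcl15 in 6, Cxcl9 in 2 and Ccr1 in 1.

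**Figure D4:**
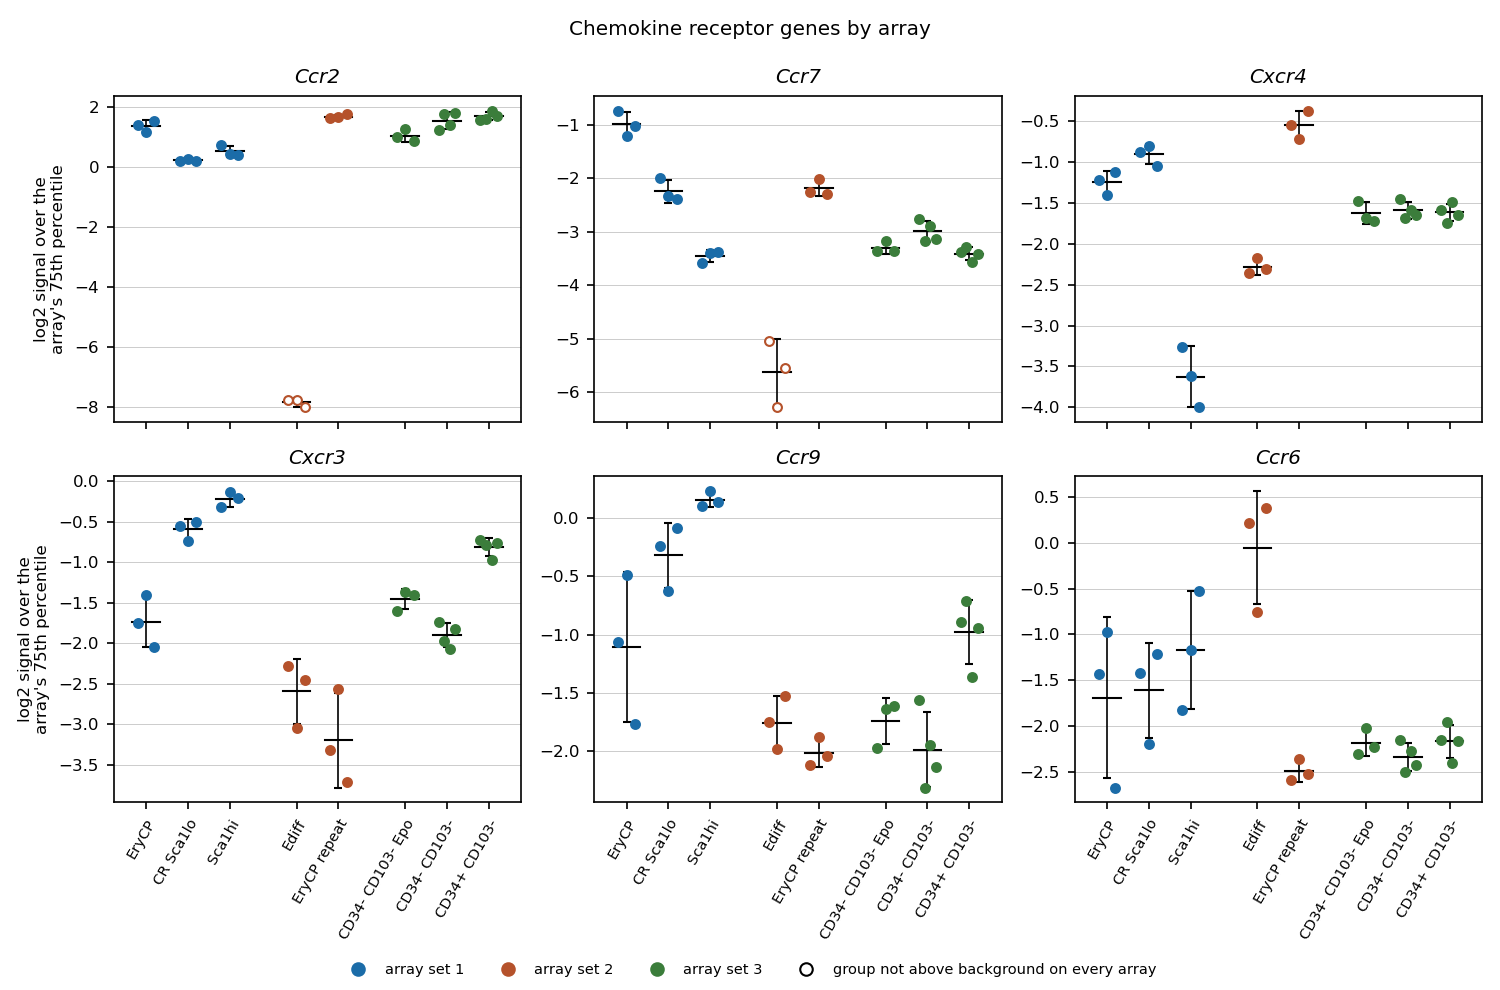
Levels of 6 receptor genes on each array (dots; log2 signal over the array's 75th percentile) in the 8 groups, with the mean and SD of each group; colours mark the array sets, and open dots a group that was not above background on every array. Ediff lies lowest of its set in Ccr2, Ccr7 and Cxcr4 and highest in Ccr6.

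The other members called in Ediff against EryCP repeat moved by less. Higher were the Ccr7 ligand Ccl19 at 0.10, -0.45 and 0.01 in Ediff and -0.96, -1.0 and -1.08 in EryCP repeat, with 0.90 ± 0.16 (adjusted p = 0.00525), and Cxcl12 at -3.71, -4.14 and -3.71 in Ediff and -4.84, -4.27 and -4.86 in EryCP repeat, with 0.80 ± 0.21 (adjusted p = 0.0204). The Ccr10 ligands Ccl27a, at -4.07, -4.54 and -4.07 in Ediff and -4.88, -4.81 and -5.32 in EryCP repeat, and Ccl28, at -2.48, -2.87 and -2.72 in Ediff and -3.46, -3.16 and -3.20 in EryCP repeat, differed by 0.78 ± 0.20 (adjusted p = 0.0192) and 0.58 ± 0.14 (adjusted p = 0.0167). In these 4 ligands no array of Ediff lay below one of EryCP repeat. Among receptors Ccr10 was at -4.06, -4.76 and -4.07 in Ediff and -5.39, -4.93 and -5.16 in EryCP repeat and Ccr1l1, a mouse relative of Ccr1, at -2.07, -2.72 and -2.11 in Ediff and -3.38, -2.90 and -3.94 in EryCP repeat. Cxcr5, the receptor of Cxcl13, was at -4.60, -4.68 and -4.77 in Ediff and -5.30, -5.88 and -5.91 in EryCP repeat and Xcr1, the receptor of Xcl1, at 0.07, -0.48 and -0.08 in Ediff and -0.99, -0.60 and -0.89 in EryCP repeat. They differed by 0.87 ± 0.23 (adjusted p = 0.0221), 1.11 ± 0.31 (adjusted p = 0.0253), 1.01 ± 0.19 (adjusted p = 0.0055) and 0.66 ± 0.18 (adjusted p = 0.0247), again without overlap. The median of all genes in this comparison was 0.45.

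With spike-in scaling 6 of the 8 turned negative (Ccl19, Cxcl12, Ccl27a, Ccl28, Ccr10 and Xcr1), and Ccr1l1 (0.15, adjusted p = 0.761) and Cxcr5 (0.05, adjusted p = 0.866) were not called. Calls were also lost for Cxcl12 without 4 of the 6 arrays in turn (all but Ediff 2 and EryCP repeat 2, log2 difference 0.70 to 0.73, adjusted p = 0.0678 to 0.074), for Ccl27a without Ediff 1, Ediff 3 or EryCP repeat 3 (log2 difference 0.62 to 0.70, adjusted p = 0.0528 to 0.0679), and for Ccl28 without Ediff 3 or EryCP repeat 1 (log2 difference 0.49 to 0.60, adjusted p = 0.0509 to 0.0626). Among the receptors calls were lost for Ccr10 without 4 of the 6 arrays in turn (all but Ediff 2 and EryCP repeat 2, log2 difference 0.75 to 0.87, adjusted p = 0.0651 to 0.0777), for Ccr1l1 without 4 of the 6 arrays in turn (all but Ediff 2 and EryCP repeat 2, log2 difference 0.84 to 1.12, adjusted p = 0.0609 to 0.0834), and for Xcr1 without 4 of the 6 arrays in turn (all but Ediff 2 and EryCP repeat 2, log2 difference 0.54 to 0.63, adjusted p = 0.0757 to 0.0875). Further calls were lost for Ccl27a with the deposited table (0.13, adjusted p = 0.172), for Ccl28 with quantile normalization or with the deposited table (0.08 to 0.28, adjusted p = 0.104 to 0.495), for Cxcl12 with the median of the gene's probes or with the deposited table (0.09 to 0.69, adjusted p = 0.111 to 0.282), for Ccr10 with the deposited table (0.16, adjusted p = 0.11), for Cxcr5 with quantile normalization or with the deposited table (0.06 to 0.62, adjusted p = 0.12 to 0.686) and for Xcr1 with the median of the gene's probes (0.12, adjusted p = 0.639).

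Lower in Ediff were Cx3cl1, the ligand of Cx3cr1, at -6.28, -6.56 and -6.82 in Ediff and -5.42, -5.52 and -5.01 in EryCP repeat, and Cxcl17, at -6.08, -6.35 and -6.26 in Ediff and -4.97, -5.33 and -5.60 in EryCP repeat. Neither was above background on any Ediff array, and they were at least 1.48-fold (adjusted p = 0.00309) and at least 1.5-fold lower (adjusted p = 0.00687). With normexp background correction that left out spots of outlying local background, Cx3cl1 (0.16, adjusted p = 0.0681), Cxcl17 (0.22, adjusted p = 0.0658) and Ccl6 (0.04, adjusted p = 0.704) turned positive and were not called.

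The Epo comparisons were set against each other as (Ediff minus EryCP repeat) minus (CD34- CD103- Epo minus CD34- CD103-). Ediff was gated on CD34 and cKit after differentiation, and no such gate is stated for CD34- CD103- Epo. Of 42 members tested 20 differed (47.6%), 8 positive and 12 negative, where 37.8% of all 27287 genes differed, 23.5% positive and 14.3% negative. The median over all genes was 0.37, and -0.39 with spike-in scaling.

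Among ligands the largest was Ccl3 (-5.71 ± 0.94, adjusted p = 0.000556; -4.41 with the dim Ediff arrays at their lowest signal well above background), followed by Ccl9 (-3.85 ± 0.19, adjusted p = 2.46e-08), which fell in Ediff and gave 0.23 ± 0.11 (adjusted p = 0.339) in CD34- CD103- Epo. Ccl4 (-2.86 ± 0.63, adjusted p = 0.00398) and Ccl17 (-1.69 ± 0.27, adjusted p = 0.000466) were negative as well. Cxcl2, not above background on any Ediff array, was at -1.87 or lower (adjusted p = 0.000323), and this was lost with normexp that left out spots of outlying background (-0.39, adjusted p = 0.137). Ccl7 was positive (3.04 ± 0.37, adjusted p = 5.54e-05), with differences of -0.46 in Ediff and -3.50 in CD34- CD103- Epo, as was Ccl5 (1.68 ± 0.53, adjusted p = 0.0272). The call for Ccl5 was lost without Ediff 1, Ediff 3, EryCP repeat 1 or CD34- CD103- 3 (log2 difference 1.51 to 1.68, adjusted p = 0.0505 to 0.0673) and with quantile normalization or with spike-in scaling (0.92 to 1.44, adjusted p = 0.0527 to 0.262). Ccl1 (0.53 ± 0.25, adjusted p = 0.116) and Ccl2 (0.70 ± 0.42, adjusted p = 0.212), which were lower in both Epo comparisons, did not differ between them past the threshold.

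Among receptors Ccr2, not above background on any Ediff array, was at -7.06 or lower (adjusted p = 1.42e-10), and Ccr7 (-3.13 ± 0.34, adjusted p = 2.01e-05) and Cxcr4 (-1.70 ± 0.15, adjusted p = 4.42e-06) were negative. In CD34- CD103- Epo against CD34- CD103- Ccr2, Ccr7 and Cxcr4 gave -0.51 ± 0.16 (adjusted p = 0.136), -0.31 ± 0.12 (adjusted p = 0.23) and -0.04 ± 0.10 (adjusted p = 0.857). Ccr6 was positive (2.28 ± 0.33, adjusted p = 0.000208). Cxcr6, the receptor of Cxcl16, was at -5.58, -6.26 and -5.52 in Ediff and -6.45, -6.66 and -6.54 in EryCP repeat in the second set and at -5.64 to -5.04 in CD34- CD103- Epo and -5.60 to -4.78 in CD34- CD103-. It was detected in neither Ediff nor EryCP repeat, and on no EryCP repeat array was it above background. Its difference was 0.95 (adjusted p = 0.0422), and 0.80 with the EryCP repeat arrays at their lowest signal well above background. Ediff 2, not above background either, kept its measured signal there, so 0.80 is not a firm bound. The call was lost without 10 of the 13 arrays in turn (all but Ediff 2, CD34- CD103- 3 and CD34- CD103- Epo 3, log2 difference 0.79 to 1.0, adjusted p = 0.0584 to 0.107). It was also lost with normexp that left out spots of outlying background, with quantile normalization, with spike-in scaling, without the filter on dim probes, with slide as a block, with eBayes trend and robust or with the deposited table (0.19 to 0.95, adjusted p = 0.0515 to 0.711).

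Calls of the Epo difference were also lost for Ccl19 without 7 of the 13 arrays in turn (all but Ediff 2, CD34- CD103- 1, CD34- CD103- 2, CD34- CD103- 3, CD34- CD103- 4 and CD34- CD103- Epo 3, log2 difference 0.76 to 0.90, adjusted p = 0.0615 to 0.11), for Ccl6 without 8 of the 13 arrays in turn (all but Ediff 1, Ediff 2, Ediff 3, EryCP repeat 3 and CD34- CD103- Epo 1, log2 difference -1.06 to -0.85, adjusted p = 0.0552 to 0.0887), and for Ccr1l1 without Ediff 1, Ediff 3, EryCP repeat 1, EryCP repeat 3, CD34- CD103- Epo 1 or CD34- CD103- Epo 2 (log2 difference 0.76 to 1.04, adjusted p = 0.0504 to 0.0688). Other settings ended calls for Ccl19 with normexp that left out spots of outlying background, with spike-in scaling, without the filter on dim probes or with the deposited table (0.12 to 0.87, adjusted p = 0.0541 to 0.817), for Ccl6 with normexp that left out spots of outlying background (-0.06, adjusted p = 0.732), for Ccr10 with normexp that left out spots of outlying background, with spike-in scaling or with the deposited table (0.23 to 0.29, adjusted p = 0.0907 to 0.654), for Ccr1l1 with spike-in scaling (0.27, adjusted p = 0.666) and for Xcr1 with spike-in scaling or with the median of the gene's probes (0.04 to 0.19, adjusted p = 0.705 to 0.951). For Cx3cl1 and Cxcl17 calls were lost with normexp that left out spots of outlying background or with the deposited table (-0.47 to -0.02, adjusted p = 0.261 to 0.885) and with normexp that left out spots of outlying background (-0.08, adjusted p = 0.663), in that order.

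**Figure D5:**
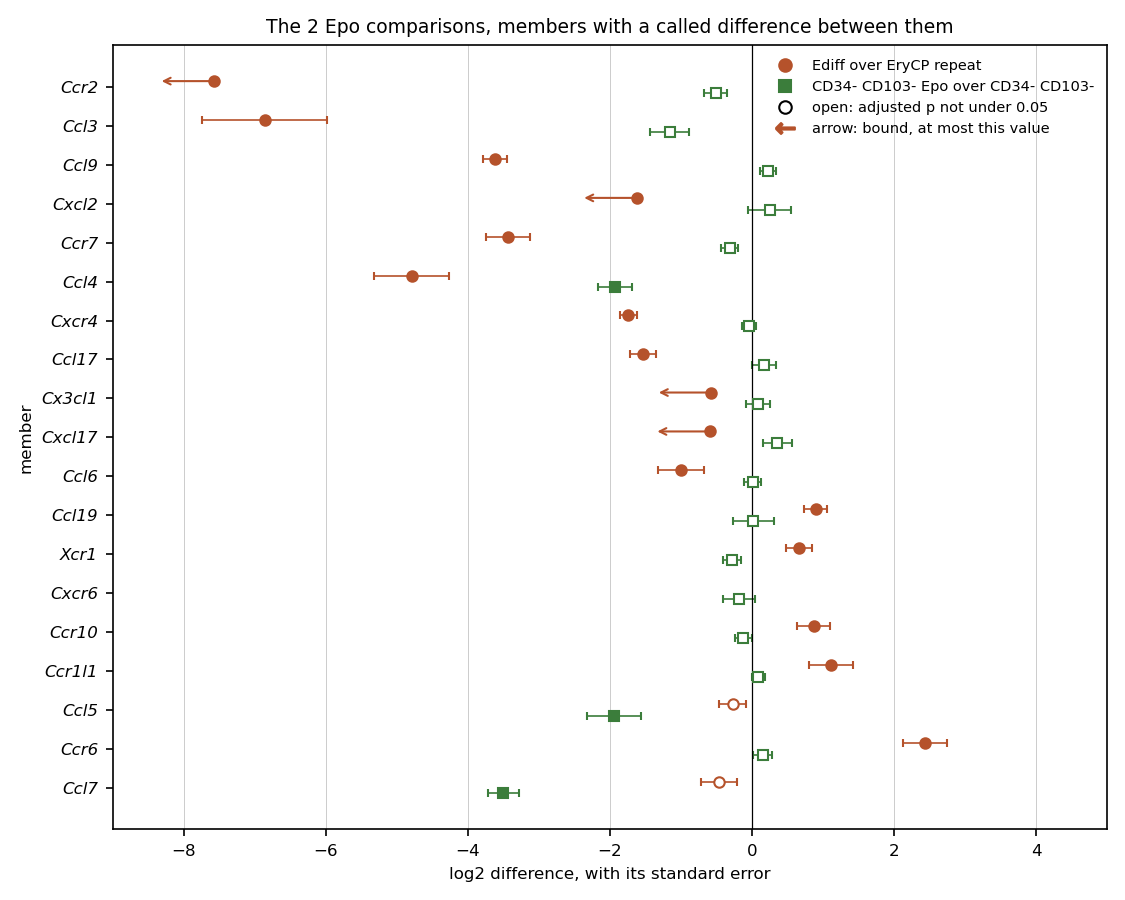
Log2 differences (horizontal axis, with standard errors) of 19 members whose Epo differences were called different, in Ediff over EryCP repeat (circles) and CD34- CD103- Epo over CD34- CD103- (squares); filled marks have an adjusted p under 0.05, and Cxcr6 has no circle because it was not tested there. Circles with an arrow are bounds for genes above background on no Ediff array. Ccr2 lies at -7.57 or lower in Ediff and at -0.51 in CD34- CD103- Epo.

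Genes of the same pathway were described from lists. Counts from lists, here and below, are to be read beside the shares of all genes called in the same comparison, given above with the members. Of 34 tested genes for signalling below chemokine receptors, 21 were called lower and 7 higher in Ediff against EryCP repeat, with a median of -1.21 (all genes 0.45). The lower ones included Gng2 (-5.02 ± 0.24), a G-protein subunit, and the kinase gene Pik3cg (-2.45 ± 0.14), and the higher ones Arrb1 (2.91 ± 0.10), an arrestin. Regulators of G-protein signalling were among both, with Rgs2 at -6.29 ± 0.23 and Rgs10 at 1.91 ± 0.09. In CD34- CD103- Epo against CD34- CD103- none of the 34 was called. In CD34- CD103- against CD34+ CD103- 8 were called higher and 3 lower (all genes 5.65% and 6.76%). The counts were 5 and 1 in EryCP against CR Sca1lo (2.74% and 2.26%) and 1 and 6 in EryCP against Sca1hi (3.16% and 3.28%). In CR Sca1lo against Sca1hi they were 0 and 4 (1.23% and 2.4%). The medians of the list were -0.04, 0.07, -0.09 and -0.25, in that order, and those of all genes -0.06, -0.07, -0.03 and 0.03.

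Of the NF-kappaB pathway 7 of 12 tested genes were called lower and 2 higher in Ediff against EryCP repeat, with a median of -0.48 (all genes 0.45). In CD34- CD103- against CD34+ CD103- 2 of 13 were called higher and 1 lower, with a median of 0.11 (all genes -0.06). The higher ones were Tnfaip3, an inhibitor of the pathway, at 1.03 ± 0.23, and Nfkbiz, at 1.08 ± 0.20, and both were called lower in Ediff, at -3.33 ± 0.19 and -4.62 ± 0.22. In CD34- CD103- Epo against CD34- CD103- none of the 13 was called.

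Of 10 chemokine genes outside the rule, 4 of 9 tested were called higher and 3 lower in Ediff against EryCP repeat, with a median of 0.73 (all genes 0.45), and 4 of 10 higher and 1 lower in CD34- CD103- against CD34+ CD103-. The platelet chemokines Pf4 and Ppbp were called lower in Ediff, at -1.34 ± 0.15 and -3.73 ± 0.44, and higher in CD34- CD103- against CD34+ CD103-, at 1.54 ± 0.13 and 0.59 ± 0.10. Ackr3, a scavenger receptor of Cxcl12, was called lower in EryCP against Sca1hi, at -2.85 ± 0.33. The scavenger receptor Ackr1 (2.14 ± 0.28) and Ccrl2 (2.43 ± 0.10) were called higher in Ediff.

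Markers of mast cells and basophils differed between the groups as well, in some comparisons beside Ccl1, Ccl2, Ccl3, Ccl4, Ccl7 and Ccl17 and in others not. The mean level of the 9 measured markers was 4.54 to 4.78 on the EryCP arrays, -0.47 to -0.17 in CR Sca1lo and 0.15 to 0.75 in Sca1hi. It was -1.20 to -1.07 in Ediff and 4.52 to 4.87 in EryCP repeat. In the third set it was 2.51 to 2.76 in CD34- CD103- Epo, 4.44 to 4.5 in CD34- CD103- and 0.25 to 0.55 in CD34+ CD103-. Of these 9, 7 were called higher in CD34- CD103- against CD34+ CD103-. The 6 ligands are those called higher in that comparison apart from Cxcl2, so their match there follows from the choice. In CD34- CD103- Epo against CD34- CD103- 7 markers were called lower, with Ccl1, Ccl2, Ccl4 and Ccl7 but not Ccl3 or Ccl17. In Ediff 8 were called lower, with all of the 6 but Ccl7. In EryCP 7 were called higher against CR Sca1lo, with Ccl2, Ccl3, Ccl4 and Ccl17, and 7 against Sca1hi, where only Ccl1 and Ccl17 of the 6 were called. In CD34- CD103- Epo against CD34+ CD103- 6 markers were called higher, with Ccl17 alone of the 6 ligands. In CR Sca1lo against Sca1hi 1 marker was called higher and 2 lower, while Ccl2, Ccl3 and Ccl4 were called lower. The part of these markers in the ligand levels was not tested.

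Erythroid markers moved as well: all 8 were called higher in Ediff, with a mean level of 5.83 to 5.84, against 0.29 to 0.53 in EryCP repeat. In CD34- CD103- Epo the mean was -1.97 to -1.82, against -1.64 to -1.10 in CD34- CD103-, and 1 of 8 was called lower and none higher. The median difference of the 8 was -0.6 (all genes 0.08), so the RNA of these markers did not follow that group's description. Ptprc, which encodes the leukocyte antigen CD45, averaged -3.47 ± 0.15 in Ediff and 2.80 ± 0.02 in EryCP repeat (SD, n = 3 each). Markers of macrophages and monocytes had mean levels below 0 in every group, and Mrc1, a macrophage gene, was above background on no array of any group but EryCP. In Ediff against EryCP repeat 5 of the 9 tested were called higher and none lower, with a median of 0.58 (all genes 0.45). Of all genes 39.6% were called higher and 17.0% lower there. The higher ones were Csf1r (3.14 ± 0.12), which encodes the receptor of the growth factor CSF-1, Mpeg1 (1.68 ± 0.23), Marco (1.5 ± 0.19), C1qb (1.2 ± 0.16) and C1qa (0.58 ± 0.2). Adgre1, Cd14, C1qc and Fcgr1 were tested and not called. The mean level of the macrophage and monocyte markers was -3.18 to -2.45 in Ediff and -4.01 to -3.52 in EryCP repeat. Their part in the member levels was not tested.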

How the data were processed

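RNA of 8 groups of EML cell fractions was hybridised to 26 one-colour Agilent arrays. Per the file headers, the authors' scanner output came from Agilent Feature Extraction 10.1.1.1 in the first 2 sets and 10.7.1.1 in the third, and holds the intensity of each spot with its background and flags. Values on the log2 scale in the deposited series table, with scale and centring unstated, served only as an alternative (column medians 7.09 to 7.29). In the first 2 sets they followed the median spot signal (r = 0.995 to 0.9999) more closely than the processed signal (0.958 to 0.981). In the third they followed the processed signal (0.9998 to 0.9999) more closely than the median signal (0.961 to 0.969). The Epo difference on that table thus sets 1 measure against another.

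Spots flagged as outliers (48 to 446 per array) and control spots were left out, and no spot was saturated. The log2 of the processed signal was centred on each array's 75th percentile, and replicate spots were averaged for each probe. Tested probes were those well above background (at least 0.5 of its spots) on every array of 1 group or more, with at least 2 measured arrays per group. Of 41174 probes 27063 were named by accession through the RefSeq table of GRCm38.p6, 26682 through the newer array design and 381 through the older, and 14111 had no symbol. Each probe without a symbol was treated as a gene of its own in the fits and in the shares of all genes. Of the members 15 had more than 1 probe. Each array set was fitted alone with limma 3.58.1 in R 4.3.3 (lmFit, eBayes, all groups of the set, no covariate), with Benjamini-Hochberg adjustment over all genes tested, and the difference of the Epo responses was fitted over 13 arrays. All p-values in the text come from these fits. The number of arrays limits the precision. The fits were tested on data with known answers. Of changes of 1 log2 unit they called 16.4% to 22.4% in the first set, 40.3% in the second, 62.7% to 71.6% in the third and 32.8% in the Epo difference. Of changes of 2 log2 units they called 50% to 66.7%, 80.3%, 90.9% to 93.9% and 69.7%, in that order. A member that was not called may therefore still differ.

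The named genes are the members by the symbol rule, with values for those called. Counts cover all members, and 1 member is not reported here by name or drawn in the figures. The members, gene lists and tests were chosen with earlier results of these data known. Alternatives were normexp background correction (offset 50), quantile normalization, spike-in scaling, no filter on dim probes, slide as a block, the median of a gene's probes, eBayes with trend and robust, the deposited table and leaving out each array. Added after seeing the data were normexp without spots whose local background was over 10 times the array's median, and leaving out slide 2 of the first set. Tables and plots were made with Python 3.11.15, pandas 2.3.3 and matplotlib 3.10.9.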

Additional observations from a re-analysis of the deposited data

Results flagged for a closer look

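In the third set the groups of 4 arrays were searched for an array far from the other 3, and 7 of 93 gene and group pairs had one, where chance gives about 1 in 20. In CD34- CD103- these were the highest array of Ccl19 (-0.03) and the lowest arrays of Ccl21a (-5.88), Cxcl12 (-8.35) and Xcr1 (-0.71). In CD34+ CD103- they were the lowest arrays of Ccl28 (-4.83), Ccl4 (-3.09) and Ccr10 (-5.53). All are levels on the log2 scale relative to the array's 75th percentile.

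The difference between the Epo comparisons, Ediff over EryCP repeat minus CD34- CD103- Epo over CD34- CD103-, passed limma's test for 20 members, of which 19 are given. Among ligands it was -5.71 for Ccl3, -3.85 for Ccl9, -2.86 for Ccl4, -1.69 for Ccl17 and -1.01 for Ccl6. Cxcl2, Cx3cl1, Cxcl17 and Ccr2 were above background on no Ediff array and have bounds only, at most -1.87 for Cxcl2, -0.65 for Cx3cl1, -0.94 for Cxcl17 and -7.06 for Ccr2. The difference was 3.04 for Ccl7, 1.68 for Ccl5 and 0.87 for Ccl19. Among receptors it was -3.13 for Ccr7 and -1.70 for Cxcr4, and 2.28 for Ccr6, 1.02 for Ccr1l1, 0.98 for Ccr10 and 0.94 for Xcr1. It was 0.80 for Cxcr6 with the EryCP repeat arrays, none of them above background, at their lowest signal well above background. This is not a firm bound, because Ediff 2 was not above background either. The sorting gate and the array set differ between these comparisons and cannot be told apart from them.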

How the results depend on the processing

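No paired analysis was possible because the titles number arrays over the whole series, so slide served as the block. Of 95 called member results, 94 kept their direction and call with slide as a block, 92 with eBayes trend and robust, 91 with quantile normalization, 91 with the median of a gene's probes, 87 without the filter on dim probes, 86 with the deposited table and 73 with spike-in scaling. With slide as a block CR Sca1lo over Sca1hi had 11 called members and EryCP over CR Sca1lo 15. With spike-in scaling EryCP over CR Sca1lo had 5 and CD34- CD103- Epo over CD34+ CD103- 14. That scaling reversed, in Ediff over EryCP repeat, Ccl19 (-0.06), Ccl27a (-0.19), Ccl28 (-0.38), Ccr10 (-0.09), Cxcl12 (-0.16) and Xcr1 (-0.30).

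Normexp background correction kept 20 of the 95. Counts of called members fell to 0 in CR Sca1lo over Sca1hi, EryCP over CR Sca1lo and Ediff over EryCP repeat, 1 in EryCP over Sca1hi and in the difference of the Epo responses, and 7 in CD34- CD103- over CD34+ CD103-. Among all genes it called 2 in CR Sca1lo over Sca1hi. It reversed Ccl17 in EryCP over CR Sca1lo (-0.01) and Ccl1 in EryCP over Sca1hi (-0.77). In Ediff over EryCP repeat it reversed Ccl1 (0.31), Ccl6 (0.34), Cx3cl1 (0.47), Cxcl17 (0.53) and Cxcl2 (0.29), and in the Epo difference Ccl6 (0.23), Cx3cl1 (0.28), Cxcl17 (0.23) and Cxcl2 (0.04). On 4 arrays a spot's signal minus local background reached -143394.5 (CR Sca1lo 2), -137853 (Sca1hi 3), -71893 (Ediff 1) and -67895.5 (EryCP repeat 1). Without such spots normexp kept 79 and reversed Ccl6 (0.04), Cx3cl1 (0.16) and Cxcl17 (0.22) in Ediff over EryCP repeat.

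Leaving out 1 array kept 786 of 911 calls and reversed none. Called members then ranged from 6 to 7 in CR Sca1lo over Sca1hi, 7 to 9 in EryCP over CR Sca1lo, 7 to 11 in EryCP over Sca1hi, 16 to 32 in Ediff over EryCP repeat, 11 to 13 in CD34- CD103- over CD34+ CD103-, 5 to 8 in CD34- CD103- Epo over CD34- CD103-, 5 to 7 in CD34- CD103- Epo over CD34+ CD103- and 16 to 24 in the Epo difference. The count was 7 without Sca1hi 2, Sca1hi 3, EryCP 1 or EryCP 3 in EryCP over Sca1hi. Without slide 2, 20 of 27 calls of the first set were kept. Other causes were not tested. Levels of probes near background limit the smaller differences.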
